A study of Mus musculus with 7 samples.

Results

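The genes described here encode matrix metalloproteinases (MMPs), the related ADAM and ADAMTS metalloproteinases, and the tissue inhibitors of metalloproteinases (TIMPs). These families were chosen with earlier results of these data known. Their members were taken by symbol alone, as every table entry whose name begins with Mmp, Timp, Adam or Adamts followed by a digit. This gave 79 of 22053 protein-coding entries, of which 23 were Mmp, 4 Timp, 33 Adam and 19 Adamts genes. MMPs are zinc-dependent proteases that cut collagens, laminins, proteoglycans and other parts of the extracellular matrix, and ADAMs are mostly membrane-bound and release the outer parts of surface proteins, a process called ectodomain shedding. ADAMTS proteins are secreted proteases with thrombospondin repeats that act on proteoglycans, procollagens and other matrix proteins. TIMPs bind to the active site of these enzymes, and in kidney the balance of proteases and TIMPs is known for its part in the turnover of basement membranes and in fibrosis.

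RNA of kidney cortex was sequenced from 3 WT kidneys (WT-5 to WT-7) and from 4 kidneys of BPS-TA mice (TC-7 and TC-8 as well as TC-11 and TC-12, with TC read as triple cross). BPS-TA mice carried 3 transgenes, noted as GGT-TTA, GGT-HIF1A_M3 and BPS-TRE-CAS9n, which together give a constitutively active HIF1A and a Cas9 nickase with paired guides against Bap1, Pbrm1 and Setd2. All mice were on a C57BL/6 background and regular chow, and their age was noted as 10 with both months and weeks as the unit. The promoter fragment of ggt acts in proximal tubules whereas whole cortex was sequenced, and no kidney carried the active HIF1A or the nickase alone, so their effects cannot be told apart. Transcripts of the guide targets, all of them chromatin regulators, were at 22.6-26.3 FPKM in WT and 22.9-26.7 FPKM in BPS-TA kidneys for Bap1, at 10.3-11.5 and 10.2-11.5 FPKM for Pbrm1, and at 16.7-18.8 and 17.3-19.3 FPKM for Setd2. None of the guide targets passed the test. The mouse behind each kidney was not stated, so p-values measure the spread between these kidneys. Values are taken as FPKM, reads per kilobase of transcript and per unit of sequencing depth. This unit was inferred from the values, and the depth of each kidney is unknown.

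Of the 79 genes, 18 reached 1 FPKM in 3 or more kidneys and were tested. Fold changes are differences between BPS-TA and WT of log2(FPKM + 1) from limma, and a gene was called at an adjusted p under 0.05 over all 12036 genes tested. Timp2, Adam15, Mmp12, Adam10 and Mmp23 rose in BPS-TA kidneys, Timp3 and Adam9 fell, and the other 11 genes did not pass. The 7 calls are 38.9% of the 18 genes, beside 35.0% of all genes tested, so these genes were called about as often as genes in general. Calls of an increase made up 28.5% of all genes tested and calls of a decrease 6.56%. The groups did not overlap for the same 7 genes (38.9%) and for 43.9% of all genes tested, 35.0% with BPS-TA higher and 8.87% with BPS-TA lower. By family, 2 of 6 tested Mmp genes rose and 0 fell, 1 of 2 Timp genes rose and 1 fell, 2 of 5 Adam genes rose and 1 fell, and 0 of 5 tested Adamts genes passed. The median log2 fold change was 0.25 over the 18 genes and 0.12 over all genes tested. That overall shift depended on scaling. Over all genes 3425 increases and 790 decreases were called, against 1416 and 1724 after quantile normalization and 1515 and 2480 after median centring, where the median change was -0.036 and -0.054.

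**Figure D1:**
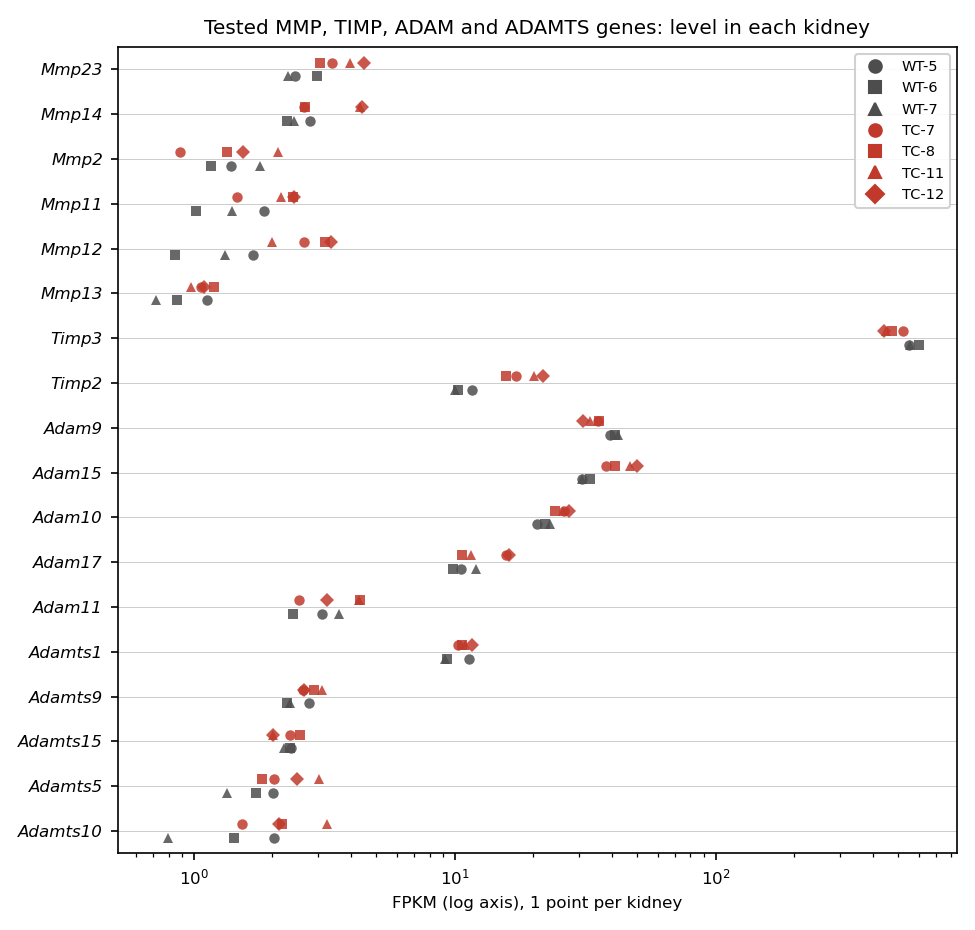
FPKM of the 18 tested genes on a log axis, with 1 point per kidney, WT in grey and BPS-TA in red. Timp3 stands alone at 442-601 FPKM, 4 ADAM genes and Timp2 lie between 9.88 and 50.0 FPKM, and most Mmp and Adamts genes lie within a few units of 1 FPKM.

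The promoters of 4 called genes are shown because these genes moved in different directions and because 2 of them hold a motif that was searched for. Each is a RefSeq window of 300 bases (GRCm38.p6) around a transcription start, most of it upstream, in the direction of the gene. Capitals mark matches to ACGTG, the core of the hypoxia response element that HIF binds, and to TGANTCA, the site of AP-1, a factor known to act on several Mmp promoters. Both strands were read. Timp2 lies at chr11:118355362-118355661 on the minus strand, Timp3 at chr10:86300162-86300461, Adam10 at chr9:70678732-70679031 and the second of the Mmp12 windows at chr9:7347124-7347423, the last 3 on the plus strand.
Timp2: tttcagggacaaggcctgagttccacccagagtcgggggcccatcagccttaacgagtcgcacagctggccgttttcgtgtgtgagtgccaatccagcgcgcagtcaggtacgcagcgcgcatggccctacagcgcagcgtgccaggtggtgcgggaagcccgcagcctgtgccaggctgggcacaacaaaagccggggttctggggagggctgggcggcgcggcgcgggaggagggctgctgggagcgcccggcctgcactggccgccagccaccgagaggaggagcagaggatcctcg
Timp3: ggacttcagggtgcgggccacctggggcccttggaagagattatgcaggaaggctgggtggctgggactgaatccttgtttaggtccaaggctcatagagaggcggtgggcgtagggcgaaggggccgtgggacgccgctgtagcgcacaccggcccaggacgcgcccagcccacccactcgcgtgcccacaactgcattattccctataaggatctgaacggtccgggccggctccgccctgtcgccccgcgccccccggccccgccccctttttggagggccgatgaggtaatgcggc
Adam10: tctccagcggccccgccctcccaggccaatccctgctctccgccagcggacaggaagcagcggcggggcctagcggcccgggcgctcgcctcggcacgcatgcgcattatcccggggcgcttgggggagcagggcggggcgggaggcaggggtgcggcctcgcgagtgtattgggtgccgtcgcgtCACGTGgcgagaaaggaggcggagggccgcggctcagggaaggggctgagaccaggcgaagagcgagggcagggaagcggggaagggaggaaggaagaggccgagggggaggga
Mmp12: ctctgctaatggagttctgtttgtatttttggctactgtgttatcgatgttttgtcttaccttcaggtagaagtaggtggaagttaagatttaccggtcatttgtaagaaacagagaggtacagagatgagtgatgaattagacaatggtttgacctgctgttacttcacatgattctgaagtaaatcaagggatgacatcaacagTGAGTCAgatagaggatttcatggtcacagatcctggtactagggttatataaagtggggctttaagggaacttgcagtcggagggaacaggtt
Adam10 holds CACGTG, in which the ACGTG matches of the plus and the minus strand overlap, at bases 187 and 188 of its window. Mmp12 holds a TGANTCA match at base 207, upstream of its start, and neither motif was found in the windows of Timp2 and Timp3. A window was found for 49 of the 79 genes (54 windows, since some genes have more than 1). ACGTG occurred in 22.2% of these windows, beside 19.6% of all 32851 promoter windows, and TGANTCA in 24.1%, beside 7.81%. Of the 13 windows with TGANTCA, 2 belonged to tested genes and 1 to a called gene, so most were of genes that could not be called. They included windows of Mmp1a, Mmp1b, Mmp3, Mmp7, Mmp10, Mmp12, Mmp13 and Mmp20, which lie in a run of neighbouring genes on chromosome 9. The rest were of Adam genes, so the share was not spread over the 4 families. Among the windows of called genes 12.5% held TGANTCA and 12.5% held ACGTG, each in 1 gene, and Adam9 had no window.

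Among the inhibitors, Timp3 was by far the most abundant transcript, and it fell while Timp2 rose. Timp3 (ENSMUSG00000020044), the TIMP that stays bound to the matrix and inhibits ADAM10, ADAM17 and ADAMTS enzymes as well as MMPs, was at 553, 601 and 556 FPKM in WT kidneys and at 523, 475, 451 and 442 FPKM in BPS-TA kidneys. Each BPS-TA kidney was below the lowest WT kidney, although TC-7 was close to it. The log2 fold change was -0.27 (SE 0.068, adjusted p = 0.0169), from 570 ± 26.9 (SD, n = 3) to 473 ± 36.2 FPKM (SD, n = 4). Without WT-6 the adjusted p was 0.0693. Timp3 shares 1733 exon bases with Syn3 on the opposite strand, whose transcripts were at 1.57-2.84 FPKM and were lower as well (log2 fold change -0.33), and the kit's strand is not stated. Proximal tubule markers moved with Timp3, in that 9 of 13 fell and 1 rose, with no marker at 0. These are 69.2% and 7.69%, beside 6.56% and 28.5% of all genes tested. After quantile normalization 8 of these markers fell and 2 rose, and after median centring 10 and 0. One marker, Kap, held 85.3-87.9% of their summed FPKM in each kidney. Without Kap the sum was 8581-9088 FPKM in WT and 5579-7083 FPKM in BPS-TA kidneys. Their part in the result was not tested, and in whole cortex fewer cells of a type and less RNA per cell cannot be told apart.

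Timp2 (ENSMUSG00000017466), which inhibits MMPs and with MMP14 also takes part in the activation of pro-MMP2, was at 11.7, 10.3 and 10.0 FPKM in WT and at 17.1, 15.6, 20.1 and 21.8 FPKM in BPS-TA kidneys. TC-11 and TC-12 were the highest, and the lowest BPS-TA kidney was well above the highest WT kidney. The log2 fold change of 0.75 (SE 0.11, adjusted p = 0.00219) went with a ratio of means of 1.75. It passed under every scaling, filter and left-out kidney tried, with adjusted p up to 0.0124. Endothelial markers (8 of 8 tested rose, summed level 176-198 FPKM in WT and 264-303 in BPS-TA) and fibroblast markers (5 of 9 tested rose, 1 of them tested only through its BPS-TA values, 55.5-69.3 and 74.7-124 FPKM) moved with Timp2, with none at 0 in all kidneys. After quantile normalization 8 endothelial and 1 fibroblast markers were called higher, and after median centring 7 and 3. Of all genes tested, 28.5% rose. B and plasma cell markers summed to 10.0-31.2 FPKM in WT and 161-284 FPKM in BPS-TA kidneys, and 4 of 4 tested rose. Of these 4, 3 were tested only through their BPS-TA values. Macrophage (10 of 10 tested rose) and mesangial and smooth muscle markers (3 of 6) were also higher. So were thick ascending limb and distal tubule (3 of 5) and collecting duct markers (4 of 6), whereas 9 of 13 proximal tubule markers fell. After quantile normalization 1 mesangial and smooth muscle marker was called higher, and after median centring 0. For thick ascending limb and distal tubule these counts were 3 and 3, for collecting duct 4 and 3, and for B and plasma cells 4 and 4. The part of these markers in the result was not tested.

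The other TIMPs were low. Timp1, the TIMP most readily induced in injured kidney, was at 0.266, 0.0929 and 0.275 FPKM in WT and at 0.220, 0.370, 0.692 and 0.821 FPKM in BPS-TA kidneys, so TC-8, TC-11 and TC-12 were above all WT kidneys and TC-7 was within their range. Timp4 stayed at 0.0342-0.0421 FPKM in WT and 0.0365-0.0485 FPKM in BPS-TA kidneys. Timp3 made up 97.9-98.3% of the summed FPKM of the 4 genes in WT kidneys and 95.1-96.8% in BPS-TA kidneys. Timp2 was at 1.71-2.11 FPKM per 100 FPKM of Timp3 in WT kidneys, and at 3.27 and 3.30 in TC-7 and TC-8 and 4.45 and 4.93 in TC-11 and TC-12. This ratio, and that of Adam15 to Adam9, were chosen after the values were seen and are given without a test.

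**Figure D2:**
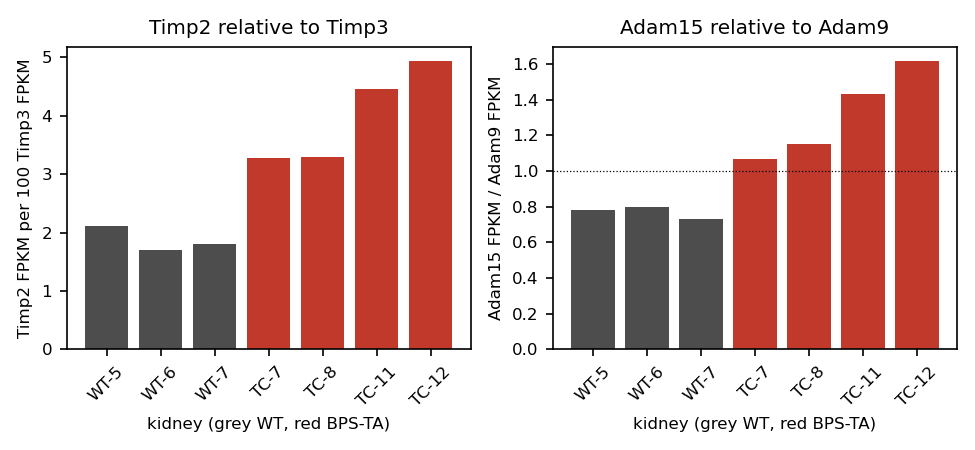
Timp2 FPKM per 100 Timp3 FPKM (left) and Adam15 FPKM divided by Adam9 FPKM (right), with 1 bar per kidney, WT in grey and BPS-TA in red. The dotted line marks equal FPKM of Adam15 and Adam9, which the WT kidneys (0.728-0.800) lie under and the BPS-TA kidneys (1.07-1.61) lie above.

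The ADAM family was dominated by 4 genes of active sheddases, Adam9, Adam10, Adam15 and Adam17, which held 92.2-95.5% of the summed FPKM of all Adam genes in each kidney. Adam15 (ENSMUSG00000028041), a membrane protease whose disintegrin domain binds integrins, was at 30.7, 32.9 and 30.7 FPKM in WT and at 37.8, 41.1, 47.1 and 50.0 FPKM in BPS-TA kidneys. All BPS-TA kidneys were higher than all WT kidneys, with TC-12 the highest. The log2 fold change was 0.46 (SE 0.095, adjusted p = 0.00769), and the call held under each scaling and with each kidney left out (adjusted p up to 0.0482). Adam15 shares 1263 exon bases with an antisense transcript, 4731419I09Rik, whose reads cannot be told apart without strand.

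Adam9 (ENSMUSG00000031555), a widely expressed sheddase, was at 39.2, 41.1 and 42.1 FPKM in WT and at 35.4, 35.7, 32.9 and 31.0 FPKM in BPS-TA kidneys. The groups did not overlap, with TC-12 the lowest. Its log2 fold change was -0.27 (SE 0.063, adjusted p = 0.0136), and without WT-7 the adjusted p was 0.0543. Adam9 was the more abundant of the pair in every WT kidney and Adam15 in every BPS-TA kidney. The ratio of Adam15 to Adam9 was 0.728-0.800 in WT and 1.07 and 1.15 in TC-7 and TC-8 and 1.43 and 1.61 in TC-11 and TC-12. Proximal tubule markers, listed above with Timp3, were lower in the same kidneys as Adam9, and their part in the result was not tested.

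Adam10 and Adam17 are the main sheddases of Notch receptors, cadherins, cytokines and growth factor precursors. Adam10 (ENSMUSG00000054693) was at 20.7, 22.2 and 23.2 FPKM in WT and at 26.3, 24.3, 26.0 and 27.3 FPKM in BPS-TA kidneys. The groups lay close together without overlap. The log2 fold change of 0.23 (SE 0.062, adjusted p = 0.0235) was the smallest of the 7 calls and depended on scaling, with 0.13 (adjusted p = 0.201) after quantile normalization and 0.053 (adjusted p = 0.593) after median centring. The call was also lost without WT-5 (adjusted p = 0.0786), WT-6 (0.0653), TC-11 (0.0537) or TC-12 (0.0627). Adam17, which releases TNF, was at 10.6, 9.88 and 12.1 FPKM in WT and at 15.7, 10.7, 11.6 and 16.1 FPKM in BPS-TA kidneys. TC-7 and TC-12 stood above the WT kidneys and TC-8 and TC-11 did not, and the gene did not pass (log2 fold change 0.28, adjusted p = 0.180). It shares 311 exon bases with Iah1 on the opposite strand, whose transcripts were at 185-237 FPKM. Adam11, a member without protease activity, was at 2.40-3.59 FPKM in WT and 2.53-4.32 FPKM in BPS-TA kidneys and did not pass.

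Genes whose products work with these sheddases were given from lists of known partners and substrates. These lists, and those further below, were chosen with earlier results of these data known. Their shares beside all genes are therefore a description and no independent result. Of 10 tested iRhom, TspanC8 and related genes, which encode partners of ADAM17 and ADAM10, 3 rose and 0 fell (30.0% and 0.00%, beside 28.5% and 6.56% of all genes tested). The median log2 fold change was 0.14, beside 0.12 over all genes. After quantile normalization 1 rose and 1 fell, and after median centring 2 and 1. Tspan15, a TspanC8 tetraspanin that directs ADAM10 to cadherins, was at 4.71, 3.67 and 4.20 FPKM in WT and at 7.06, 6.79, 6.32 and 7.04 FPKM in BPS-TA kidneys, without overlap (log2 fold change 0.59, adjusted p = 0.00167). Tspan17 (0.67, adjusted p = 0.0145) and Snx33 (0.41, adjusted p = 0.00790), a sorting nexin, also rose, but Tspan17 lost its call after quantile normalization (adjusted p = 0.0618) and without WT-7 (0.0530). Snx33 lost its call after quantile normalization (0.181) and median centring (0.0523). The iRhom genes Rhbdf1 and Rhbdf2, needed for maturation of ADAM17, had log2 fold changes of -0.13 and 0.22 and did not pass.

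Of 26 tested genes for surface proteins that ADAM10 or ADAM17 shed, 14 rose and 2 fell (53.8% and 7.69%, beside 28.5% and 6.56% of all genes tested), with a median log2 fold change of 0.33, beside 0.12. After quantile normalization 10 rose and 4 fell, and after median centring 7 and 4. Havcr1, the kidney injury molecule KIM-1, was at 0.572, 0.712 and 0.644 FPKM in WT and at 3.99, 3.47, 3.03 and 4.31 FPKM in BPS-TA kidneys. Each BPS-TA kidney was several times above each WT kidney. Havcr1, 1 of the 14, reached 1 FPKM in BPS-TA kidneys alone and so adds to that count through the filter. For it the fit with no filter is given (log2 fold change 1.51, adjusted p = 0.000362). Vcam1, a leukocyte adhesion molecule (0.98, adjusted p = 0.00334), and Btc, the EGF receptor ligand betacellulin (0.86, adjusted p = 0.00390), rose as well. Hbegf, another EGF receptor ligand, fell (log2 fold change -0.81, adjusted p = 0.000917), from 15.6, 11.2 and 12.3 FPKM in WT to 6.81, 6.89, 6.88 and 7.16 FPKM in BPS-TA kidneys. Its BPS-TA values were almost equal and below all WT values. These are transcript levels, and shedding itself was not measured.

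MMP transcripts were sparse, with summed FPKM of 11.9-13.6 over all 23 Mmp genes in WT and 15.5-21.9 in BPS-TA kidneys. Mmp12 (ENSMUSG00000049723), the macrophage elastase, was at 1.69, 0.849 and 1.31 FPKM in WT and at 2.64, 3.19, 1.99 and 3.36 FPKM in BPS-TA kidneys. The groups did not overlap, and TC-11 was the closest to WT. Mmp12 rose by 0.73 on the log2 scale (SE 0.17, adjusted p = 0.0118), with a ratio of means of 2.18. After quantile normalization the adjusted p was 0.0819. Macrophage markers moved with Mmp12, since 10 of 10 tested rose (beside 28.5% of all genes tested) and their summed level was 63.8-71.0 FPKM in WT and 122-191 FPKM in BPS-TA kidneys, with none of the 11 measured at 0. After quantile normalization 9 of these markers rose, and after median centring 10. Other lists given above with Timp2 rose as well, among them endothelial (8 of 8 tested) and B and plasma cell markers (4 of 4). The part of all these markers in the result was not tested. The order of the BPS-TA kidneys differed, as TC-11 was lowest for Mmp12 but at 161 FPKM the second highest for the macrophage markers.

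Mmp23 (ENSMUSG00000029061), a small MMP with a cysteine array, was at 2.43, 2.96 and 2.29 FPKM in WT and at 3.38, 3.04, 3.96 and 4.47 FPKM in BPS-TA kidneys. TC-8 was only just above WT-6. The log2 fold change was 0.40 (SE 0.12, adjusted p = 0.0339), and the call was lost after quantile normalization (0.13, adjusted p = 0.422), after median centring (0.22, adjusted p = 0.182) and with no filter (adjusted p = 0.0584). It was also lost without WT-5 (0.0903), WT-7 (0.114), TC-11 (0.0781) or TC-12 (0.0701).

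The remaining tested MMPs did not pass. Mmp14, the membrane-bound activator of pro-MMP2 and a collagenase, was at 2.79, 2.28 and 2.42 FPKM in WT and at 2.64, 2.67, 4.32 and 4.42 FPKM in BPS-TA kidneys. TC-11 and TC-12 were above all WT kidneys and TC-7 and TC-8 were within the WT range (log2 fold change 0.34, adjusted p = 0.141). The summed fibroblast markers split the BPS-TA kidneys in the same way, at 76.4 and 74.7 FPKM in TC-7 and TC-8 and at 120 and 124 FPKM in TC-11 and TC-12. Other marker sums did so too, among them mesangial and smooth muscle (151 and 224 against 389 and 373 FPKM). Podocyte (107 and 107 against 131 and 134 FPKM) and macrophage sums (122 and 122 against 161 and 191 FPKM) were further ones. Endothelial, B and plasma cell, thick ascending limb and distal tubule and collecting duct sums were likewise higher in TC-11 and TC-12 than in TC-7 and TC-8. The proximal tubule sum was lower there (47113 and 53154 against 46994 and 46100 FPKM). The neutrophil and the T and NK cell sums were not split in this way. The part of these markers in the result was not tested. Mmp2, the gelatinase A that MMP14 activates, was at 1.38, 1.17 and 1.80 FPKM in WT and at 0.881, 1.34, 2.10 and 1.55 FPKM in BPS-TA kidneys. The lowest and the highest value were both from BPS-TA kidneys, and the log2 fold change was -0.0038 (SE 0.17). Mmp11, a stromelysin of stromal cells, had a log2 fold change of 0.36 (adjusted p = 0.105), and without TC-7 it passed (0.47, adjusted p = 0.0357). Mmp11 shares 155 exon bases with Chchd10 on the opposite strand, whose transcripts were at 372-411 FPKM. Mmp13, a collagenase, was at 0.714-1.12 FPKM in WT and 0.977-1.19 FPKM in BPS-TA kidneys.

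**Figure D3:**
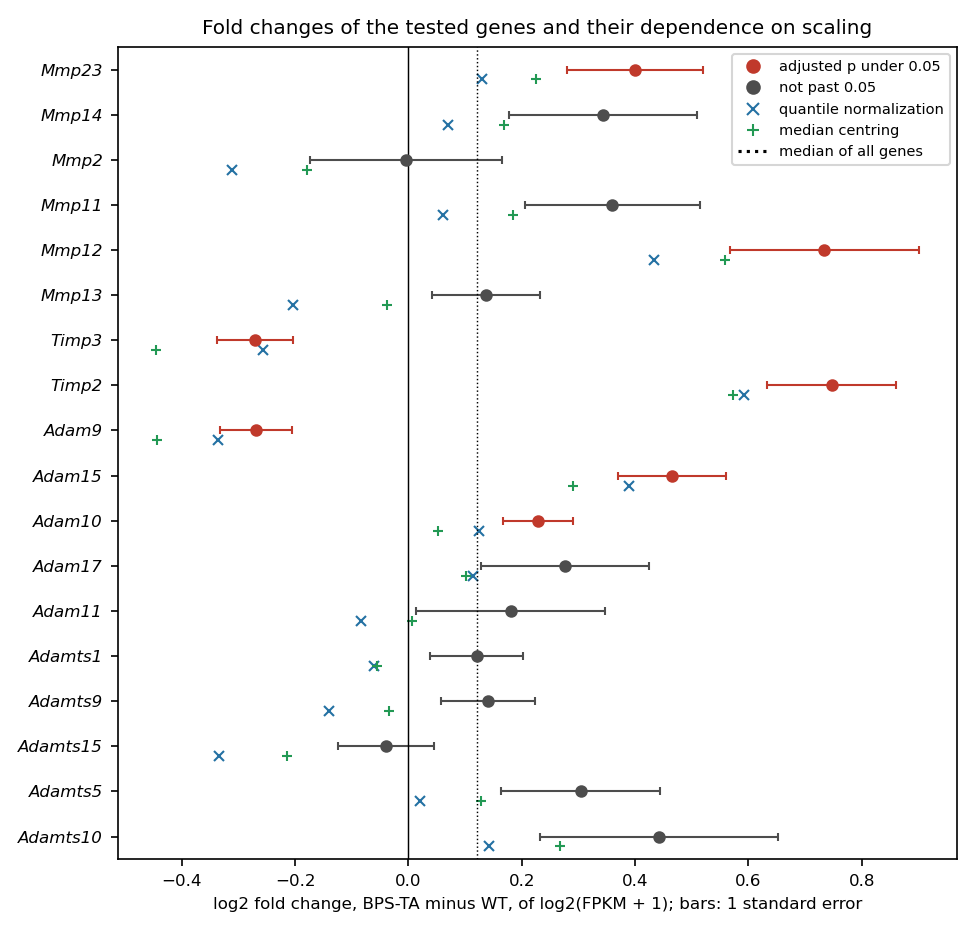
Difference between BPS-TA and WT in log2(FPKM + 1) for the 18 tested genes, with bars of 1 standard error, red where the adjusted p is under 0.05, and the values after quantile normalization (crosses) and median centring (plus signs). The dotted line is the median of all genes (0.12). Timp2, Mmp12 and Adam15 lie to its right and Timp3 and Adam9 to the left of 0 under each scaling.

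In the annotation, 10 Mmp genes lie side by side on chromosome 9 with no other protein-coding gene between them, in the order Mmp13, Mmp12, Mmp1b, Mmp3, Mmp1a, Mmp10, Mmp8, Mmp27, Mmp20 and Mmp7. Only Mmp13 and Mmp12, neighbours at 1 end of this run, reached 1 FPKM in any kidney. Mmp3, Mmp8 and Mmp7, a stromelysin, the neutrophil collagenase and matrilysin, reached 0.707, 0.105 and 0.265 FPKM at most. Mmp10, Mmp27 and Mmp20 stayed below 0.1 FPKM, and Mmp1a and Mmp1b were listed at 0 in every kidney. Mmp12 shares 157 exon bases with Mmp1b.

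The 5 tested ADAMTS genes gave no call, although 4 of them had positive fold changes. Adamts1, a protease of the proteoglycans aggrecan and versican, was the most abundant, at 11.3, 9.37 and 9.17 FPKM in WT and at 10.3, 10.6, 10.9 and 11.6 FPKM in BPS-TA kidneys. The groups overlapped through WT-5, and its log2 fold change of 0.12 became negative with scaling (-0.061 after quantile normalization, -0.055 after median centring). Adamts9, another proteoglycanase, was at 2.28-2.75 FPKM in WT and 2.62-3.09 FPKM in BPS-TA kidneys (log2 fold change 0.14, and -0.14 and -0.035 under those scalings), and it shares 1381 exon bases with A730049H05Rik on the other strand. Adamts15 was at 2.22-2.36 and 2.00-2.55 FPKM, with a log2 fold change of -0.040, and passed only after quantile normalization (-0.33, adjusted p = 0.0355). Adamts5, the aggrecanase, and Adamts10, a binder of fibrillin, had log2 fold changes of 0.30 and 0.44 (adjusted p = 0.128 and 0.137). Adamts10 varied widely among the WT kidneys, from 0.799 to 2.02 FPKM, and reached 3.22 FPKM in TC-11.

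Of the remaining 61 genes, 14 were listed at 0 in every kidney, 11 of them Adam genes and 3 Mmp genes. Another 14 stayed below 0.1 FPKM, and 33 reached 0.1 FPKM or more in some kidney. Among the 47 with some value, 10 were higher in every BPS-TA than in every WT kidney (21.3%, beside 22.1% of all genes under the filter with some value) and 1 was lower (1.26% of all such genes). In the fit without a filter, 6 of these genes passed as higher (beside 12.6% of all genes under the filter) and 0 as lower (beside 0.730%). The 6 were Adamts7, Mmp15, Adam7, Adamts12, Adam2 and Adam23.

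Adamts7, which cleaves cartilage oligomeric matrix protein, was at 0.376, 0.364 and 0.340 FPKM in WT and at 0.717, 0.773, 0.751 and 0.769 FPKM in BPS-TA kidneys. Both groups were tight and wide apart, with a ratio of means of 2.09 (log2 fold change 0.37, adjusted p = 0.000565 with no filter). Adamts7 shares 122 exon bases with Tbc1d2b, which lies on the other strand and rose from 2.21-2.94 to 3.89-4.50 FPKM. Mmp15, a membrane-type MMP, was at 0.556, 0.591 and 0.372 FPKM in WT and at 0.995, 0.856, 1.04 and 1.30 FPKM in BPS-TA kidneys, again without overlap (log2 fold change 0.44, adjusted p = 0.0129 with no filter).

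Adam7, a protease-inactive ADAM best known from the epididymis, had the largest difference between the group means of the genes under the filter (0.121 and 1.66 FPKM). It was at 0.0700, 0.101 and 0.191 FPKM in WT and at 2.59, 2.49, 0.655 and 0.903 FPKM in BPS-TA kidneys, with a log2 fold change of 1.16 (adjusted p = 0.0311 with no filter). TC-7 and TC-8 were the highest, whereas TC-11 and TC-12 were the highest for Timp2 and Adam15. Because only 2 kidneys exceeded 1 FPKM, Adam7 was not among the 18 tested genes. Adam23 was at 0.106-0.123 and 0.154-0.221 FPKM. Adam2 and Adamts12 were at 0.112 FPKM or below in every kidney. Adam4 was the gene that was lower in every BPS-TA kidney, at 0.108-0.181 against 0.0602-0.103 FPKM, and did not pass (adjusted p = 0.0556 with no filter).

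The other low genes that were higher in each BPS-TA kidney did not pass. Adamts8, a proteoglycanase, was at 0.0562-0.0676 FPKM in WT and at 0.135, 0.0963, 0.322 and 0.338 FPKM in BPS-TA kidneys, and Adamts17, Mmp24 and Mmp25 stayed below 0.1 FPKM. Adamts2, the main procollagen N-propeptidase, overlapped through a single WT kidney. It was at 0.326, 0.227 and 0.936 FPKM in WT and at 0.951, 0.752, 1.64 and 2.33 FPKM in BPS-TA kidneys, with TC-8 below WT-7 (adjusted p = 0.103 with no filter). Mmp9, the gelatinase B of leukocytes, was at 0.210, 0.162 and 0.494 FPKM in WT and at 0.376, 0.262, 0.362 and 0.453 FPKM in BPS-TA kidneys, with WT-7 the highest of all. Of the neutrophil markers 2 were tested and neither passed in the main fit, though 2 were called lower after quantile normalization and after median centring. Their list had a summed level of 5.90-10.8 FPKM in WT and 4.14-6.08 FPKM in BPS-TA kidneys, and Ly6g and Elane were at 0. Adam8, an ADAM of myeloid cells, was at 0.0935-0.385 FPKM in WT and at 0.205, 0.240, 0.859 and 0.591 FPKM in BPS-TA kidneys. The others with 0.3 FPKM in at least 3 kidneys were Mmp17, Mmp28, Adam19, Adam22, Adam1a, Adam32, Adamts16 and Adamts6, whose groups overlapped.

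**Figure D4:**
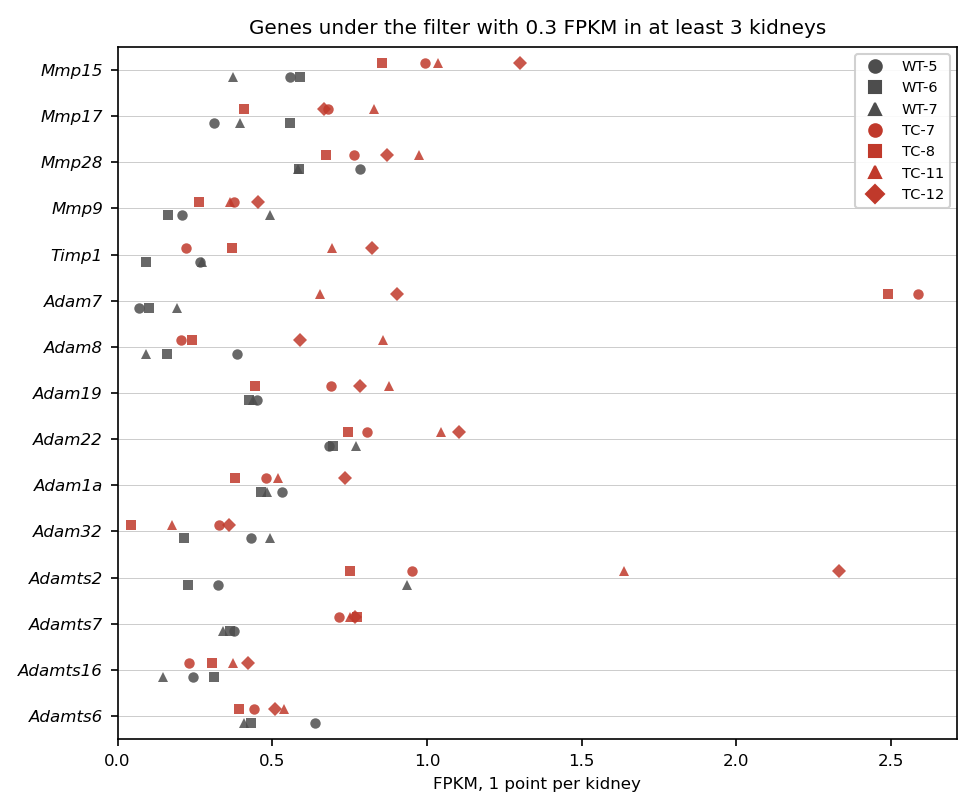
FPKM of the 15 genes that were not tested but reached 0.3 FPKM in at least 3 kidneys, with 1 point per kidney, WT in grey and BPS-TA in red. Adam7, Adamts7 and Mmp15 show no overlap between the groups, Adam7 with TC-7 and TC-8 near 2.5 FPKM and Adamts7 with all BPS-TA kidneys within 0.717-0.773 FPKM.

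Regulators outside the 4 families were given from a list of activators and of surface or serum inhibitors. Of 15 tested, 7 rose and 1 fell (46.7% and 6.67%, beside 28.5% and 6.56% of all genes tested), with a median log2 fold change of 0.26, beside 0.12. A2m and Cd44, 2 of the 7, reached 1 FPKM in BPS-TA kidneys alone. After quantile normalization 5 rose and 1 fell, and after median centring 5 and 2. A2m, the serum protease inhibitor alpha-2-macroglobulin that traps proteases of all classes, was at 0.0878, 0.126 and 0.0980 FPKM in WT and at 14.5, 15.3, 15.3 and 15.4 FPKM in BPS-TA kidneys. It was near 0 in every WT kidney and within 1 unit among the BPS-TA kidneys (log2 fold change 3.87, SE 0.059, adjusted p = 1.35e-06 with no filter). Bsg, the MMP inducer CD147, was at 321, 313 and 310 FPKM in WT and at 602, 656, 560 and 553 FPKM in BPS-TA kidneys, without overlap (log2 fold change 0.91, adjusted p = 6.83e-05). Both calls held in each alternative in which the gene was tested.

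Serpine2, an inhibitor of plasminogen activators and thrombin (1.17, adjusted p = 0.00790) and Pcsk6, a proprotein convertase (0.96, adjusted p = 0.00107), also rose on the log2 scale. Pcsk5, another proprotein convertase, fell by 0.27 (adjusted p = 0.0219), but not without WT-6 (adjusted p = 0.0842) or TC-11 (0.0529). Plau, the urokinase gene, was at 155 ± 24.0 (SD, n = 3) and 179 ± 8.83 FPKM (SD, n = 4) in WT and BPS-TA kidneys, and did not pass (adjusted p = 0.134).

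Of 7 tested ADAMTS-like and related secreted genes, 3 rose and 0 fell (42.9% and 0.00%, beside 28.5% and 6.56% of all genes tested), with a median log2 fold change of 0.37, beside 0.12. Thsd4 and Adamtsl1, 2 of the 3, reached 1 FPKM in BPS-TA kidneys alone, so these counts and the median show little. After quantile normalization 1 rose, and after median centring 2. Thsd4, the ADAMTS-like 6 protein that promotes fibrillin assembly, was at 0.879, 0.881 and 0.867 FPKM in WT and at 2.08, 1.60, 2.69 and 2.99 FPKM in BPS-TA kidneys. Its log2 fold change was 0.81 (adjusted p = 0.00970 with no filter). Adamtsl1 (0.55, adjusted p = 0.0106 with no filter) did not pass after quantile normalization (0.270). Ltbp1, a latent TGF-beta binding protein (0.37, adjusted p = 0.0339), lost its call after quantile normalization (log2 fold change 0.10), median centring (adjusted p = 0.183) and with no filter (0.0556), and without any single WT kidney, TC-7 or TC-12 (0.0504 to 0.118).

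Of 14 tested genes of other zinc metalloproteases and their enhancers, 6 rose and 1 fell (42.9% and 7.14%, beside 28.5% and 6.56% of all genes tested), with a median log2 fold change of 0.15, beside 0.12. After quantile normalization 3 rose and 2 fell, and after median centring 1 and 1. Ace, the angiotensin-converting enzyme, was at 70.4, 86.7 and 81.5 FPKM in WT and at 130, 137, 124 and 130 FPKM in BPS-TA kidneys, well apart (log2 fold change 0.71, adjusted p = 0.000453). Enpep, aminopeptidase A of the proximal tubule brush border, fell (log2 fold change -0.30, adjusted p = 0.0114). Pcolce, the procollagen C-proteinase enhancer (0.43, adjusted p = 0.0165), and Cpm, carboxypeptidase M (0.42, adjusted p = 0.0136), rose, but after median centring neither passed (0.0971 and 0.109). Cpm also did not pass after quantile normalization (0.157) or without WT-6 (0.0545), nor did Pcolce without WT-6 (0.0642) or WT-7 (0.0580).

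Of 27 tested genes for matrix proteins that these proteases cut, 15 rose and 0 fell (55.6% and 0.00%, beside 28.5% and 6.56% of all genes tested), with a median log2 fold change of 0.42, beside 0.12. Col5a1, 1 of the 27, reached 1 FPKM in BPS-TA kidneys alone and was not called. After quantile normalization 6 rose, and after median centring 7. The fibroblast and endothelial markers given above with Timp2 moved with these genes, the fibroblast sum being highest in TC-11 and TC-12. The other rising marker lists given there went in the same direction, and the part of all these markers in the result was not tested. The fibroblast list shares collagens and other genes with this list. Bgn, the small proteoglycan biglycan, was at 90.8, 77.4 and 81.0 FPKM in WT and at 115, 122, 165 and 160 FPKM in BPS-TA kidneys, with TC-11 and TC-12 the highest (log2 fold change 0.74, adjusted p = 0.00495). Col3a1, a fibrillar collagen (1.03, adjusted p = 0.0233), Col6a1, a microfibrillar collagen (0.91, adjusted p = 0.0425), and Fn1, fibronectin (0.78, adjusted p = 0.0286), rose too. After quantile normalization none of these 3 passed (adjusted p = 0.0695, 0.142 and 0.103). After median centring Col6a1 (0.0892) and Fn1 (0.0668) did not pass, and with no filter the values were 0.0776 and 0.0556. Col3a1 was also lost without WT-6 (0.0814), WT-7 (0.0716) or TC-11 (0.0515), Col6a1 without any single WT kidney, TC-11 or TC-12 (0.0809 to 0.113), and Fn1 without WT-6, WT-7, TC-11 or TC-12 (0.0559 to 0.0918).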

How the data were processed

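RNA of kidney cortex was sequenced by the authors as single reads of 51 bases. The authors' processing notes name mm9 and DESeq 1.32. For the aligner, counting program and annotation the sources used here give no name. The deposited table names no unit, and FPKM was inferred because the totals differ between kidneys. With read depth unknown, counting intervals could not be computed. Columns were assigned by the names WT and TC, and 0 other columns per kidney were left out. The second deposited file holds the authors' own comparison (fold changes and p-values) and was not used.

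After 83 entries of 37 repeated identifiers were left out, genes that reached 1 FPKM in 3 or more kidneys were fitted on the log2(FPKM + 1) scale with limma 3.58.1 (R 4.3.3), with a mean-variance trend, no covariates and Benjamini-Hochberg adjustment over 12036 genes. The steps were tested on simulated data. Alternatives were quantile normalization, median centring, limma without trend, no filter, at least 1 FPKM in all kidneys, a pseudocount of 0.1, an adjusted p under 0.01 and each kidney left out. Python 3.11.15 with numpy 2.4.6, pandas 2.3.3 and matplotlib 3.10.9 was used.

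The genes and lists were chosen with earlier results of these data known. Named are all Timp genes, all called genes, the 3 most abundant tested genes of each family, genes whose groups did not overlap, and untested genes with 0.3 FPKM in at least 3 kidneys. Of each list up to 4 called genes with the largest fold changes and 1 in the other direction were named. A few others were added after their values were seen (the remaining tested genes, Rhbdf1, Rhbdf2, Plau, Iah1, A730049H05Rik, 4731419I09Rik, Syn3, Chchd10, Tbc1d2b). The 79 identifiers were all found in a GRCm38 annotation, used for exon overlap and gene order. Its build differs from mm9, so coordinates are printed for RefSeq promoters (GRCm38.p6) alone. Of the 79 genes, 20 share exon bases with another gene. A planned search for the zinc-binding motif in the proteins was not run.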

Additional observations from a re-analysis of the deposited data

How the results depend on the processing

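No paired analysis was possible because the numbers in the column names match no replicate number of the sample labels, and only WT-7 and TC-7 share a number. After quantile normalization 2 of the genes were called higher (0 Mmp and 1 Adam gene), with 1416 increases and 1724 decreases over all genes, and 3 lower, Adamts15 in addition to Timp3 and Adam9. After median centring 3 were called higher (1 Mmp, 1 Adam), with 1515 and 2480 over all genes. The fold changes of Adam11 (-0.084), Adamts1 (-0.061), Adamts9 (-0.14) and Mmp13 (-0.20) turned negative after quantile normalization, and those of Adamts1 (-0.055), Adamts9 (-0.035) and Mmp13 (-0.038) after median centring. With no filter 10 were called higher (5 Adam, 2 Adamts). With an FPKM of 1 in every kidney 1 Mmp gene was called higher, since Mmp12 was not tested. At an adjusted p under 0.01 the calls were 2 higher and 0 lower (0 Mmp and 1 Adam gene higher), with 1747 and 363 over all genes. Limma without trend and a pseudocount of 0.1 changed no call among the 18 genes.

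With each kidney left out in turn, 3 to 6 of the genes were called higher and 1 to 2 lower. By family 1 to 3 Mmp, 1 Timp, 1 to 2 Adam and 0 Adamts genes were called higher. Over all genes there were 2267 to 3325 increases and 491 to 905 decreases. Mmp2, near 0 throughout, ranged from -0.12 (without TC-11) to 0.12 (without TC-7) and was also positive without WT-7 (0.096) or TC-8 (0.013). Depth could be compared only through the steps of low values, which put the kidneys other than TC-8 within 0.895 to 1.09 of WT-5, and gave no clear value for TC-8.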

Other observations

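Adam7 and Crisp1, both best known from the epididymis, were set side by side after their values were seen. Crisp1 was listed at 0 in all WT kidneys and at 1.40 and 1.37 FPKM in TC-7 and TC-8 and 0.583 and 0.777 FPKM in TC-11 and TC-12, and Adam7 was at 2.59, 2.49, 0.655 and 0.903 FPKM in the same kidneys. Of 10 other epididymal genes (Crisp4, Lcn5, Lcn8, Lcn9, Lcn10, Lcn12, Spint4, Gpx5, Wfdc8 and Pate4), 7 were at 0 in every kidney and the highest value was 0.0433 FPKM. No test was run on these values.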
